A study of Mus musculus with 9 samples.

Results

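Fos, Fosb, Klf2, Arc and Dusp1 were followed across a rat Schwann cell line kept under 3 conditions. They are 5 of the 819 genes found in at least 1 of the 3 tables analysed here, and were chosen by symbol. Each table holds only genes that its authors selected, with at least a 2-fold difference between a pair of groups. In a comparison whose table lists a gene, the gene's difference is therefore a description and carries no test. Fos, Fosb, Klf2 and Dusp1 were listed for exosome-treated against control cells. Fosb, Klf2, Dusp1 and Arc were listed for exosome-treated cells against cells given conditioned medium, and Arc was the only 1 of the 5 listed for conditioned medium against control. All listed genes had an unadjusted p under 0.05 in the authors' test, but many did not pass after adjustment. The authors' false discovery rate (FDR) was under 0.05 for 45.9% of the genes listed for exosome-treated against control cells. The share was 70.4% for conditioned medium against control and 79.5% for exosomes against conditioned medium. Joined over the tables, 4 of the 5 genes had a value in all 9 libraries, and Fos had a value in 6. Values of Fos after conditioned medium were not analysed here.

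Immediate early genes are switched on by growth factor, stress or calcium signals without the need for new protein, largely through MAP kinases acting on factors already bound at their promoters. Fos and Fosb encode partners of the Jun proteins in the AP-1 transcription factor. Klf2 encodes a zinc finger transcription factor best known from endothelial cells, where the ERK5 branch of the MAP kinases induces it. Arc encodes an activity-induced protein studied mostly in neurons, where it acts at synapses. Dusp1 encodes a phosphatase that removes the activating phosphates of MAP kinases and is itself induced by them, which makes it a negative feedback gene. In Schwann cells, MAP kinase and AP-1 signalling are known from the response to nerve injury.

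The libraries came from RSC96, an immortal rat Schwann cell line, so every group is drawn from 1 line. There were 3 libraries of cells given exosomes of menstrual blood-derived stem cells (MenSCs), called E-SCs. Another 3 came from cells given the conditioned medium of those stem cells, called M-SCs. The remaining 3, called SCs, were controls. The design text calls them control SCs, whereas the sample titles place them in culture with control MenSCs. Whether SCs were untreated cells is therefore unclear. The labels name mouse as the organism, but all 819 gene identifiers are rat identifiers, which is the species of RSC96. The study sought genes tied to the proliferation of Schwann cells. No dose or treatment time is given in the labels, and none says that libraries of 1 group are from separate cultures, so the p-values measure only the spread between libraries, which may be technical. Messenger RNA was enriched with oligo(dT) beads. The values used are read counts that the authors scaled by library, called scaled counts here and obtained from the deposited log2 values by undoing the logarithm and taking off the 1 that had been added.

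The libraries' relative depth ran from 0.868 to 1.16 times that of E-SCs replicate 1, and between 266674 and 609452 reads per library fell on the genes that have a value. Of 15 Schwann cell markers, 3 were listed in some table, Prx and Pmp22 among them. Because only selected genes were analysed, the cell type could not be checked further. Prx, a myelin gene, differed by -1.29 on the log2 scale for M-SCs against SCs. For E-SCs against M-SCs it differed by 1.22, and Pmp22, another myelin gene, by -1.02. Of 8 macrophage and leukocyte markers, Cd14 was listed, at a scaled count of 160.2 ± 12.8 in E-SCs, against 569.9 ± 59.5 in M-SCs and 201 ± 36.7 in SCs (SD, n = 3 each). None of the 7 fibroblast and mesenchymal or 4 endothelial markers was listed, and no marker of any of these lists was listed for E-SCs against SCs. The part of these markers in the results below was not tested. In bulk RNA, fewer cells expressing a gene and less of its RNA per cell cannot be told apart.

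Exosome-treated cells were first set against the controls. The AP-1 genes Fos and Fosb, the transcription factor gene Klf2 and the phosphatase gene Dusp1 were all lower in E-SCs. Their mean scaled counts in E-SCs were 0.341 to 0.474 of those in SCs. For each of the 4 genes, every E-SCs library lay below every SCs library. Of the 18409 genes that the authors tested, 0.462% were listed as lower, and 45.9% of the 185 listed genes were lower. The groups did not overlap for 71.9% of the listed genes. The separation comes with being listed, and nothing is read from it about these genes.

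Fos (ENSRNOG00000008015) had scaled counts of 548, 577 and 527 in the E-SCs libraries, against 1427, 1309 and 1355 in the SCs libraries. The group means were 550.5 ± 24.97 in E-SCs and 1364 ± 59.5 in SCs (SD, n = 3 each). The log2 difference was -1.31 (SE 0.08). The highest E-SCs library, at 577, lay under the lowest SCs library, at 1309, a separation that comes with being listed. Fosb (ENSRNOG00000046667) had scaled counts of 446, 430 and 476 in E-SCs, against 1230, 1391 and 1168 in SCs. Its log2 difference was -1.48 (SE 0.10). The relative drop of Fosb and that of Fos had overlapping 95% intervals on the log2 scale, -1.71 to -1.26 for Fosb and -1.49 to -1.13 for Fos.

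Klf2 (ENSRNOG00000014205) was expressed at a low level. It had scaled counts of 24, 22.7 and 35.7 in E-SCs, resting on 24, 22 and 31 reads, against 79.9, 81.8 and 80.3 in SCs, resting on 90, 86 and 75 reads. The log2 difference was -1.55 (SE 0.25), with a wider 95% interval, -2.14 to -0.96, than the AP-1 genes. Dusp1 (ENSRNOG00000003977) was the most deeply read of the 5 genes. It had scaled counts of 2861, 2772 and 2573 in E-SCs, against 5743, 5581 and 5978 in SCs, and differed by -1.08 on the log2 scale (SE 0.06). This lies just inside the 2-fold limit of the table, whose smallest listed difference was 1.02 on the log2 scale. Outside it, Arc differed by -0.55 and was not listed.

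In the authors' deposited table for this comparison, Dusp1 had the smallest p-value of the 185 listed genes, and Fos and Fosb ranked 3 and 4. By the size of the difference Dusp1 ranked only 172, Fos 139, Fosb 119 and Klf2 115. The median absolute log2 difference over all 185 listed genes was 1.83.

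**Figure D1:**
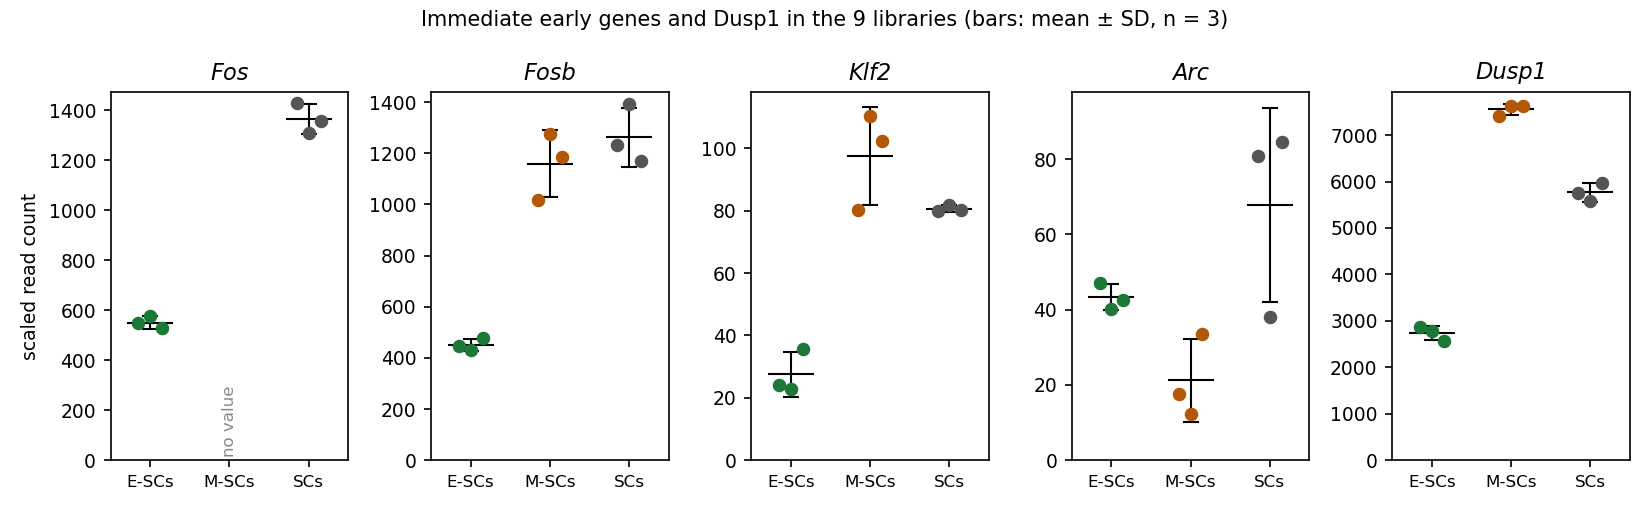
Scaled read counts (linear axis from 0, own scale per gene) of Fos, Fosb, Klf2, Arc and Dusp1 in each library of E-SCs, M-SCs and SCs; points are libraries, and the horizontal line and bars are the mean ± SD (n = 3). Fos, Fosb, Klf2 and Dusp1 are lowest in E-SCs, Dusp1 is highest in M-SCs at 7416 to 7624, Arc is lowest in M-SCs, and Fos has no value for M-SCs.

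Because 4 of the 5 genes were lower together in E-SCs, short stretches of their promoters are shown with motifs known from genes induced by MAP kinases and cAMP. The measured genes are rat genes, and the sequences are those of the mouse genes of the same symbol from RefSeq (GRCm38.p6), so they show the conserved gene and not the measured DNA. Of the 5 genes, Fos, Fosb, Dusp1 and Klf2 matched a window of 250 bases before to 50 bases after the gene's start; Arc was not matched. Windows were searched on both strands for TGACG, the core of the cAMP response element (CRE), for the full CRE TGACGTCA, which contains that core on both strands, for the AP-1 site TGANTCA, for the CArG box bound by serum response factor and for the MEF2 site, which MEF2 factors downstream of ERK5 bind. Each stretch of 30 bases is written 5′ to 3′ on the gene's strand, with the motif in capitals.
Fos, CRE core, chr12:85473811-85473840, plus strand: cagttccgcccagTGACGtaggaagtccat
Fosb, CRE core, chr7:19310089-19310118, minus strand: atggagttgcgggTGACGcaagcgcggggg
Dusp1, full CRE, chr17:26508597-26508626, minus strand: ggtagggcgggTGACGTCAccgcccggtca
Klf2, CRE core, chr8:72318812-72318841, plus strand: ctggtttgtTGACGccgtcgccatagggac
Klf2, MEF2 site, chr8:72318934-72318963, plus strand: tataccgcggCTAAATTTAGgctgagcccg

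The cores shown began 66 bases before the start of Fos, 60 before that of Fosb, 143 before that of Dusp1 and 241 before that of Klf2. The Fos window held 2 cores and the Dusp1 window 3, among them both strands of its full CRE. The Fosb stretch begins at the 5′ edge of the RefSeq span of that gene, chr7:19302696-19310118, and lies inside it, since that span begins upstream of the start site used for the window. The other stretches lie upstream of their genes. All 4 windows held the CRE core, as did 20.8% of the 32851 mouse windows counted. Those 32851, called all windows here, leave out a chromosome that holds none of these genes. The full CRE was in the Dusp1 window and in 1.79% of all windows, and the MEF2 site was in the Klf2 window and in 0.557% of all windows. Neither the AP-1 site (7.81% of all windows) nor the CArG box (1.63%) was in any of the 4 windows. Bases further upstream were not searched, so these promoters may hold such sites outside the windows. These matches describe letters and say nothing on which factor was bound.

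Cells given conditioned medium were likewise set against the controls. Of the 5 genes, Arc was listed, as lower in M-SCs, and 0.859% of the 18503 genes that the authors tested were listed as lower. Arc (ENSRNOG00000043465) had scaled counts of 17.7, 12.3 and 33.6 in M-SCs, from 19, 11 and 39 reads, against 80.8, 38.1 and 84.6 in SCs, from 91, 40 and 79 reads. The log2 difference was -1.66 (SE 0.45), and with 1 library left out it ran from -2.04 to -1.35. The groups did not overlap, but M-SCs replicate 3 came close to SCs replicate 2. Of the 405 genes listed in this comparison, 83.0% had groups that did not overlap.

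Fosb, Klf2 and Dusp1 were not listed for M-SCs against SCs, and for them the difference was tested in 1 limma fit of all 9 libraries. It covered the 316 genes with a value in every library, with Benjamini-Hochberg adjustment over these genes. The same fit tested Arc in E-SCs against SCs, which makes 4 tests on the 5 genes. The libraries are those that put the genes in the tables. Not being listed limits these differences, since a clear difference of 2-fold or more would have been listed.

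Dusp1 was higher in M-SCs, at scaled counts of 7416, 7621 and 7624, against 5743, 5581 and 5978 in SCs. Every M-SCs library lay above every SCs library, and the groups did not overlap for 70.9% of the 316 genes either. The log2 difference of 0.39 (95% interval 0.29 to 0.49) passed limma's test (adjusted p = 3.56e-05). Of the 316 genes, 69.9% passed this test for M-SCs against SCs and 44.0% passed as higher, so a call alone does not set Dusp1 apart. With the libraries scaled to equal medians over the 316 genes, which moves M-SCs against SCs by 0.55 on the log2 scale, the Dusp1 difference turned to -0.16 and did not pass (adjusted p = 0.079). Those medians are of genes selected for differing.

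Fosb had scaled counts of 1019, 1277 and 1184 in M-SCs, against 1230, 1391 and 1168 in SCs, and the groups overlapped. Its log2 difference was -0.13 (95% interval -0.34 to 0.09, limma adjusted p = 0.27). The interval leaves out a 2-fold difference in either direction. With equal medians the Fosb difference was -0.68 (adjusted p = 0.00043). Klf2 had scaled counts of 80.2, 110.5 and 102 in M-SCs, against 79.9, 81.8 and 80.3 in SCs. The groups overlapped, since M-SCs replicate 1 lay inside the range of SCs, and the log2 difference was 0.26 (95% interval -0.25 to 0.77, limma adjusted p = 0.33). With equal medians it was -0.29 (adjusted p = 0.29).

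Arc in E-SCs was at scaled counts of 47.0, 40.2 and 42.7, against 80.8, 38.1 and 84.6 in SCs. All 3 E-SCs libraries lay inside the range of SCs. The log2 difference was -0.55 (95% interval -1.46 to 0.35, limma adjusted p = 0.38), while 31.0% of the 316 genes passed in that comparison. Without SCs replicate 2 the difference was -0.92 (adjusted p = 0.12).

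Exosomes and conditioned medium were also compared directly. Fosb, Klf2 and Dusp1 were lower in E-SCs, and Arc was higher. Of the 18514 genes the authors tested, 1.76% were listed as lower and 1.24% as higher in E-SCs, and the groups did not overlap for 89.9% of the 555 listed genes. Dusp1 averaged 2735 ± 148 in E-SCs, against 7554 ± 119 in M-SCs, and differed by -1.47 on the log2 scale (SE 0.04). Fosb had 451 ± 23.4 in E-SCs and 1160 ± 131 in M-SCs (-1.36, SE 0.09). Klf2 differed most of the 3, with 27.5 ± 7.18 in E-SCs and 97.7 ± 15.7 in M-SCs (-1.81, SE 0.26).

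Arc went the other way, averaging 43.3 ± 3.43 in E-SCs, against 21.2 ± 11.1 in M-SCs. Its log2 difference was 1.11 (SE 0.39) and ran from 0.80 to 1.49 with 1 library left out. It was thus lowest in M-SCs, while Fosb, Klf2 and Dusp1 were lowest in E-SCs. The highest Arc library of M-SCs, at 33.6, lay below the lowest of E-SCs, at 40.2. In the order of group means on the deposited scale, Fosb in M-SCs and SCs did not differ beyond its spread, nor did Klf2 in M-SCs and SCs or Arc in E-SCs and SCs. For Fosb this depends on the scaling, since with equal medians M-SCs minus SCs was -0.68 (limma adjusted p = 0.00043). These comparisons share libraries, so the values of a gene in them are not independent.

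**Figure D2:**
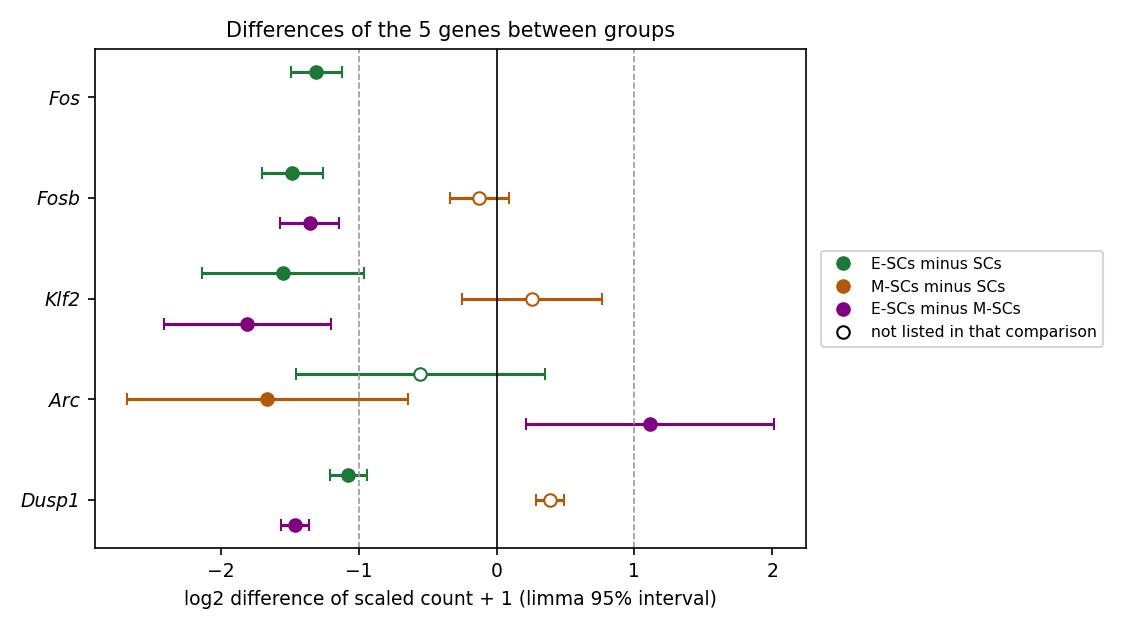
Log2 differences (horizontal axis, scaled count plus 1) of the 5 genes for E-SCs minus SCs, M-SCs minus SCs and E-SCs minus M-SCs, with limma's 95% intervals; dashed lines mark a 2-fold difference, and open circles are comparisons whose table does not list the gene. Fos, Fosb, Klf2 and Dusp1 lie at or below -1.08 for E-SCs minus SCs, Dusp1 lies at 0.39 for M-SCs minus SCs, and Arc alone lies above 0 for E-SCs minus M-SCs.

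Levels of different genes can be compared per length, as FPKM, in E-SCs and M-SCs. Dusp1 was the highest, at 43.7 ± 2.51 FPKM in E-SCs and 119.6 ± 1.71 FPKM in M-SCs (SD, n = 3 each). Fosb followed at 3.71 ± 0.18 FPKM in E-SCs and 9.49 ± 1.04 FPKM in M-SCs. Klf2 and Arc were near or below 1 FPKM in E-SCs, Klf2 at 0.79 ± 0.21 and Arc at 0.43 ± 0.04. In M-SCs Klf2 had 2.82 ± 0.44 FPKM and Arc 0.21 ± 0.11 FPKM. The order of the 4 genes was the same in both groups, and in neither did neighbouring genes overlap between libraries. Arc was the only 1 of them with an FPKM in SCs, at 0.68 ± 0.26. FPKM of Fos was not analysed here.

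**Figure D3:**
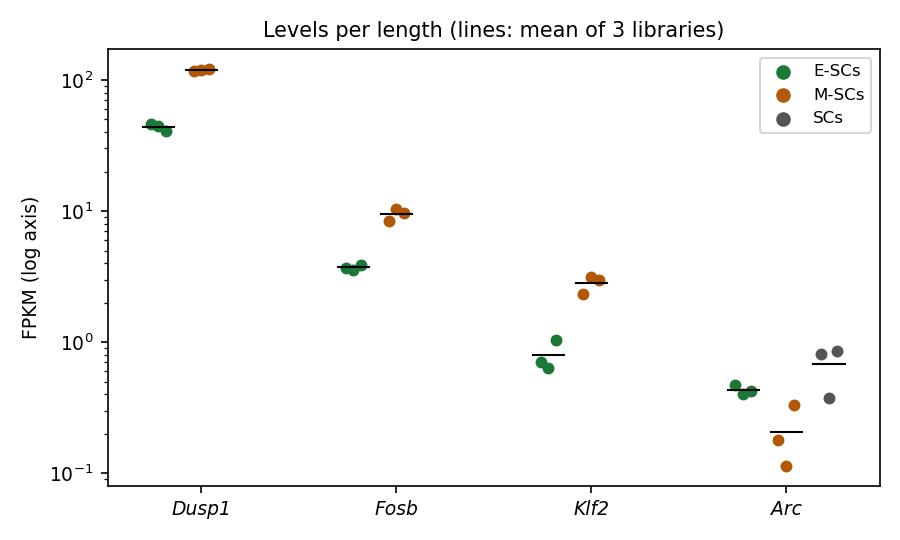
FPKM (log axis) of Dusp1, Fosb, Klf2 and Arc in each library with a deposited FPKM, in E-SCs, M-SCs and, for Arc, SCs; lines are means of 3 libraries. Dusp1 stands highest at 40.9 to 121 FPKM and Arc lowest at 0.11 to 0.85 FPKM.

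The spread between libraries of a group differed between the genes. The SD of the scaled count was 4.54% of the mean for Fos in E-SCs, where counting alone would give 4.38%. For Dusp1 it was 5.39% in E-SCs, then 1.57% in M-SCs and 3.45% in SCs, where counting gives 1.96, 1.13 and 1.29%. Klf2 varied by 26.1% in E-SCs, where 25.7 reads per library give 19.7% from counting. In SCs Klf2 varied by 1.28%, well under the 10.9% of counting, so its SCs libraries lay closer together than counting alone would give. Arc was the least even in those groups, with 52.2% in M-SCs and 38.1% in SCs, against 20.9 and 12% from counting. In E-SCs Arc varied by 7.93%, where counting gives 15.6%.

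Other genes of the pathway were taken from 5 lists of 153 symbols, which cover 151 genes, with limma's test on the 6 libraries of each table and adjustment over its listed genes. Without the 5 genes above, 2 of the remaining 148 symbols (1.35%) were listed for E-SCs against SCs, where 185 of all 18409 genes tested were listed. For M-SCs against SCs 9 were listed (6.08%), with 405 of all 18503 genes, and 14 in the comparison of the treatments (9.46%), with 555 of all 18514 genes. How many of the 148 the authors tested is not known. All the listed ones passed limma's test in their table, as did 65.4, 83.2 and 92.1% of all listed genes in the 3 comparisons in this order. These genes had been selected for a difference on the same libraries, so passing adds no support, and their differences are given as a description. The median log2 difference of these other list genes was -1.19, -1.03 and 1.02. That of all listed genes was 1.05, 1.13 and -1.10. A listed gene differs by at least 2-fold, so the sign of such a median shows only which direction held more genes. The other list genes were 2 lower for E-SCs against SCs, and 3 higher and 6 lower for M-SCs against SCs. For the treatments they were 8 higher and 6 lower, and nothing is read from these medians.

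Of 28 immediate early transcription factors, 3 were listed for E-SCs against SCs, namely Fos, Fosb and Klf2. A different pair was listed for M-SCs against SCs, and both were lower in M-SCs. Atf3, a stress-induced CREB-family factor, had 1643 ± 6.93 in M-SCs and 3500 ± 36.8 in SCs (log2 difference -1.09, SE 0.04). Nr4a1, an orphan nuclear receptor, had 457 ± 4.55 in M-SCs and 974 ± 45.2 in SCs, also -1.09 (SE 0.07). For E-SCs against M-SCs, Fosb and Klf2 were the listed members. Jun, Junb, Egr1 and Myc were among the members not listed in any table, which does not show that they were unchanged.

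Of 26 symbols of immediate early effectors, which name 24 genes, 1 was listed for E-SCs against SCs. This was Gadd45g, a stress-response gene, at 330.4 ± 21.0 in E-SCs, against 706 ± 25.3 in SCs (log2 difference -1.09, SE 0.09). For M-SCs against SCs 5 were listed, 2 higher and 3 lower. Socs3, an inhibitor of cytokine signalling, was higher and Plk2, a kinase of the Polo family, was lower, with log2 differences of 1.04 (SE 0.06) and -1.03 (SE 0.05).

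For E-SCs against M-SCs 10 effectors were listed, 6 higher and 4 lower in E-SCs. Socs3, Ier3, Trib1 and Pim1 were lower, with log2 differences of -1.39, -1.18, -1.19 and -1.17 in this order (SE 0.06 to 0.12). Ier3 is a regulator of cell survival, Trib1 a pseudokinase and Pim1 a serine/threonine kinase. Plk2, Vgf, a secreted neuropeptide precursor, and Ctgf, a matrix-associated growth factor also called Ccn2, were higher in E-SCs, with log2 differences of 1.02, 1.35 and 1.02 (SE 0.03 to 0.13). Plk2 had nearly the same mean scaled count in E-SCs, 5062 ± 38.2, as in SCs, 5071 ± 67.6, with 2490 ± 91.5 in M-SCs. The effectors thus lay in both directions, and Arc was among those higher in E-SCs than in M-SCs.

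Of 25 genes of MAP kinase feedback, only Dusp1 and Dusp8 were listed, and they went in opposite directions for E-SCs against M-SCs. Dusp8, a phosphatase that acts on JNK and p38, had 68.9 ± 4.74 in E-SCs, against 23.8 ± 8.28 in M-SCs and 54.8 ± 13.3 in SCs. Its log2 difference was -1.20 (SE 0.34) for M-SCs against SCs and 1.55 (SE 0.31) for E-SCs against M-SCs. Without SCs replicate 1, Dusp8 missed limma's threshold for M-SCs against SCs (-1.03, adjusted p = 0.051). The Sprouty and Spred genes and the other Dusp genes of the list stood in no table, so MAP kinase feedback is represented by Dusp1 alone for E-SCs against SCs.

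Of 38 MAP kinase core genes, none was listed for E-SCs against SCs. Map3k8, a kinase that activates MEK in inflammatory signalling, had 22.3 ± 3.45 in E-SCs, against 49.4 ± 16.8 in M-SCs and 17.5 ± 5.03 in SCs. Its log2 difference was 1.43 (SE 0.37) for M-SCs against SCs and -1.07 (SE 0.34) for E-SCs against M-SCs. With equal medians these were 0.92 and -0.60 and missed limma's threshold (adjusted p = 0.056 and 0.13). For E-SCs against M-SCs, Map3k8 also missed it without E-SCs replicate 2, M-SCs replicate 1 or M-SCs replicate 2 (adjusted p from 0.052 to 0.059). Mapk10, the JNK gene of neurons, was listed for E-SCs against M-SCs, with 15 reads in all E-SCs libraries together and 0 in those of M-SCs.

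Of 36 growth factors and receptors upstream of MAP kinases, 2 were listed in some table, Lpar1 among them. Lpar1, a receptor for lysophosphatidic acid, had 680.4 ± 61.9 in E-SCs, against 238 ± 14.3 in M-SCs and 482 ± 13.5 in SCs. Its log2 difference was -1.02 (SE 0.09) for M-SCs against SCs and 1.51 (SE 0.10) for E-SCs against M-SCs.

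**Figure D4:**
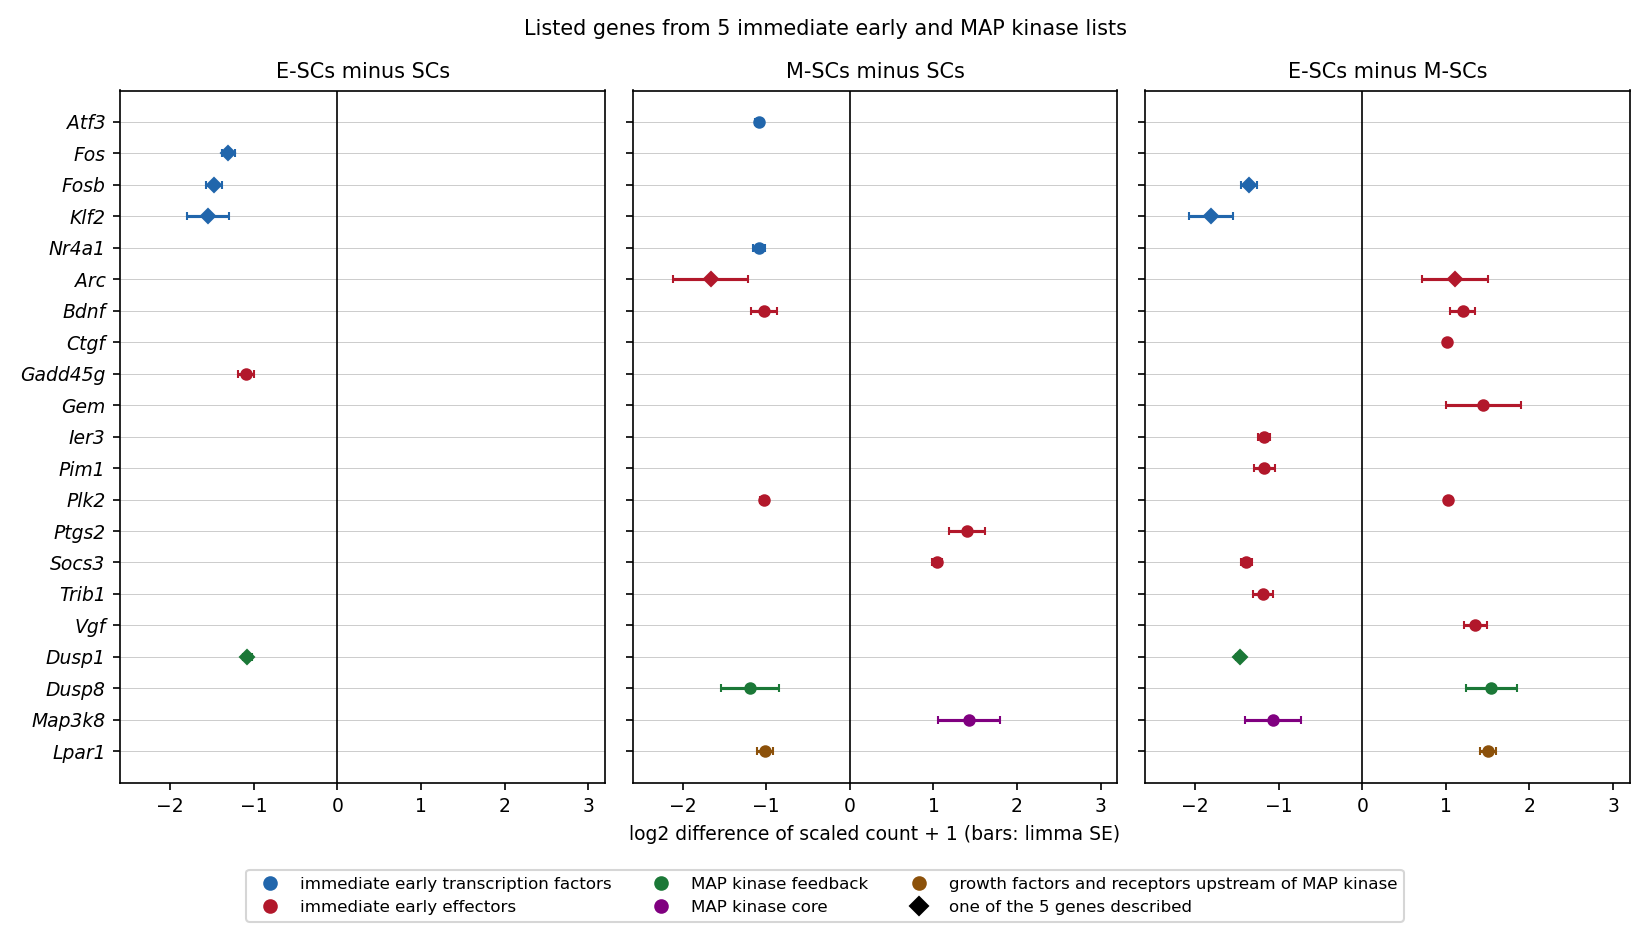
Log2 differences (horizontal axis, scaled count plus 1; bars are limma's SE) of listed genes from 5 immediate early and MAP kinase lists for E-SCs minus SCs, M-SCs minus SCs and E-SCs minus M-SCs; diamonds are Fos, Fosb, Klf2, Arc and Dusp1, and Mapk10, with 0 reads in M-SCs, is left out. The 5 genes of the left panel lie below 0, whereas those of the other panels lie on both sides.

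The KEGG annotation that the authors deposited gives another list, taken up after the values were seen. Of the 5 genes, it puts Fos and Dusp1 in the MAPK signalling pathway, as it does 20 of all 819 genes. For E-SCs against SCs, 6 of the 55 listed genes with a KEGG pathway carried this term, and all 6 were lower in E-SCs, Fos and Dusp1 among them. Of those 55 genes, 50.9% were lower in E-SCs. Gadd45g, Angpt1 and Mapk13 were among the other 4. Angpt1, a ligand of the Tie2 receptor, differed by -1.04 (SE 0.36), and missed limma's threshold with any 1 library left out (adjusted p from 0.054 to 0.12). Mapk13, a p38 kinase, rests on 1 read over the E-SCs libraries and 18 over the SCs libraries. For M-SCs against SCs 5 of 11 genes with the term were lower in M-SCs, against 33.6% of the 149 listed genes with a KEGG pathway. In the comparison of the treatments 10 of 16 were lower in E-SCs, against 68.5% of 219.

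The genes with a pattern most like each of the 5 were found among genes with values in all 9 libraries and a mean log2 value of at least 5. Likeness was the root mean square difference over the 9 libraries after centring each gene on its SCs mean, in log2 units, and 131 other genes were ranked for each. Predicted symbols are not named, though some ranked nearer than the genes given. Among named genes, Fosb was nearest to Klf2 (0.27), Hes1 (0.29) and Dusp1 (0.40), at ranks 1, 2 and 5. Klf2 was in the same way nearest to Fosb (0.27), Dusp1 (0.36) and Hes1 (0.38), at ranks 2, 4 and 5. Since these genes were chosen together, their closeness to each other is no independent finding. Hes1, the Notch-induced repressor, had 205 ± 16.0 in E-SCs, against 665 ± 149 in M-SCs and 769 ± 55.1 in SCs.

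Among named genes, Dusp1 was nearest to Vwa1 (0.16), Scara5 (0.30) and Klf2 (0.36), at ranks 2, 4 and 5. Vwa1 encodes an extracellular matrix protein and had 63.0 ± 6.14 in E-SCs, against 203 ± 23.2 in M-SCs and 138 ± 9.85 in SCs. Vwa1, Scara5 and Dusp1 shared the order of their group means, lowest in E-SCs, then SCs, then M-SCs, on the deposited scale. Arc was nearest to S100a7a (0.47), Slc30a1 (0.50) and Arrdc4 (0.51), and the other 3 genes stood at ranks 48, 53 and 56 from it. Slc30a1, a zinc exporter, had 844 ± 59.6 in E-SCs, against 408 ± 54.5 in M-SCs and 1052 ± 64.3 in SCs, the same order of groups as Arc. Arc thus followed a pattern of lowest level in M-SCs that Fosb, Klf2 and Dusp1 did not share.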

How the data were processed

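RNA-seq of 9 RSC96 libraries was analysed from 3 tables deposited by the authors, each with the 6 libraries of 1 pair of groups. Per the submitters' processing notes, HISAT2 and StringTie were used and the build was mm10, of mouse; versions and roles are missing, and the identifiers in the tables are those of rat. The deposited log2 values were found to be log2(scaled count + 1), where a library's scaled counts up to 1000 reads were all multiples of 1 step (tolerance 0.01 reads), which gave the reads. Library totals are unknown. FPKM, p-values and FDR are the authors' deposited values; no source used here names their test. The numbers of genes they tested were read from the ratio of FDR to p.

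limma 3.58.1 (R 4.3.3), with a mean-variance trend and a threshold of 0.05 on the Benjamini-Hochberg adjusted p, was fitted to the log2 values of each table and, for differences in which a gene is not listed, to all 9 libraries. All genes of a table had been selected on the same libraries, so adjusted p-values are smaller than over all genes. A log2 difference here is the first group named minus the second, also for the authors' table of E-SCs and M-SCs, which runs the other way. Intervals are limma's 95% intervals. The fit was also run on simulated data in which most genes did not differ. All genes here were selected for differing, so that run says nothing about the calls reported. Python 3.11.15, pandas 2.3.3, numpy 2.4.6 and matplotlib 3.10.9 were used for the rest. Each pair of libraries within a group differed beyond sampling noise (chi-square per gene 5.44 to 14.0), so none was merged.

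The 5 genes, the lists and the tests were chosen with earlier results of these data known. Named were the 5 genes, up to 8 listed genes per list in order of the authors' p, and the 3 most alike genes per gene, leaving out predicted symbols. Same-numbered libraries did not deviate together in every pair, so the main fits have no replicate block. The cell type marker lists and the alternatives in the closing section were set with them. Some genes of these lists are counted but not reported here.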

Additional observations from a re-analysis of the deposited data

Results flagged for a closer look

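Among the genes reported here that have values in all 9 libraries, 10 had every E-SCs library on 1 side of the SCs mean and every M-SCs library on the other side, on the deposited scale. They were looked for among the 5 genes, the pathway and marker lists, the KEGG MAPK term and the most alike genes. The number searched and the share of all 316 genes with 9 values that are so placed are not given. Nothing is therefore read from the count of 10. The 10 were listed for a difference of 2-fold or more between E-SCs and M-SCs, which favours this placement. Whether the treatments' effects differ was not tested beyond the direct contrast that listed these genes, whose log2 differences are given here. Dusp1 lay below the SCs mean in 3 of 3 E-SCs libraries and above it in 3 of 3 M-SCs libraries, with a difference of -1.47; with equal medians its M-SCs difference from SCs was -0.16. Socs3, the inhibitor of cytokine signalling, Cd14, the macrophage marker, and Angpt1, the Tie2 ligand, were placed in the same way, with -1.39, -1.82 and -3.39. So were Vwa1 and Scara5, which had been chosen as most like Dusp1, with -1.67 and -1.95. Angpt1 averaged 27.4 ± 9.94 in E-SCs, against 283 ± 5.89 in M-SCs and 55.7 ± 12.7 in SCs. Dusp8, Lpar1, Bdnf, a neurotrophin gene, and Gadd45a, a stress-response gene, lay above the SCs mean in E-SCs and below it in M-SCs, with 1.55, 1.51, 1.20 and 1.55. Bdnf and Gadd45a were named after their values were seen. With 3 libraries a group, single libraries that stand apart were not searched for.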

How the results depend on the processing

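All genes had been selected by the authors, library totals are unknown, and depth limits Klf2 and Arc, which rest on 11 to 119 reads per library. For E-SCs against SCs limma called 121 of 185 genes, but 34 of 36 when a mean log2 of 5 or more was required, and 78 to 105 with 1 library left out. M-SCs against SCs gave 337 calls, but 165 of 165 under that filter and 220 of 251 in the fit of all 9 libraries. The treatments compared directly gave 511, but 270 of 270 and 259 of 287; these alternatives test fewer genes. Under equal medians, calls split into 44 higher and 73 lower for E-SCs against SCs, where there had been 59 and 62, into 135 and 154 in place of 204 and 133 for M-SCs against SCs, and into 225 and 235 in place of 203 and 308 for the treatments. A replicate block gave 122, 338 and 493 calls, and no gene named here lost its call; the numbers were not taken to pair the libraries, since deviations of same-numbered libraries correlated at -0.25 to 0.44 over 132 genes.

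Of 86 alternatives for the 9 listed differences of the 5 genes, 76 moved by less than 1 SD and none reversed. With equal medians, E-SCs minus SCs was -1.53 for Fos, -1.71 for Fosb and -1.30 for Dusp1, and E-SCs minus M-SCs was -0.89 for Fosb, -1.002 for Dusp1 and -1.34 for Klf2. With log2(FPKM + 1), which compresses low values, E-SCs minus M-SCs was -1.15 for Fosb, -1.09 for Klf2 and 0.25 for Arc, and M-SCs minus SCs was -0.47 for Arc. Where a gene is not listed, equal medians gave M-SCs minus SCs of -0.68 for Fosb, which then passed, and reversed Dusp1 to -0.16 and Klf2 to -0.29; the cause was not tested. With 1 library left out, Dusp1 stayed at 0.37 to 0.42. For the pathway genes 355 alternatives of 29 results were run, of which 326 kept the call and 29, spread over 8 results, lost it. The 3 genes named as most alike to each gene were the same at a pseudocount of 0.1.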
